A study of Mus musculus with 14 samples.

Results

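Ccn2, Ccn3 and Ccn5 are members of the CCN family of matricellular genes and were formerly named Ctgf, Nov and Wisp2. They were found by the gene symbols of the array's platform annotation, which gave each of them 1 probe, so that 3 of 7680 probes and 3 of 6542 named genes are described. The genes were chosen with their values on these arrays known, so their levels and differences are given as a description with no test. Ccn1 and Ccn4 were also on the array, and Ccn6 was not analysed here.

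Total RNA of 11 mouse cell lines was labelled with Cy5 and hybridised on 14 spotted arrays against the Stratagene mouse reference, a commercial RNA pool, labelled with Cy3. The blood-cell lines were a macrophage, a myeloma and a T-cell lymphoma line. The mesenchymal lines were a fibroblast, an embryo fibroblast and a myoblast line, and the 5 organ lines were named mammary tumor, liver, testis, kidney and skin. There were 2 arrays each for the fibroblast, mammary tumor and myeloma lines, and 1 for each of the other 8. The labels used here name no individual line, mouse strain, age or treatment, nor do they state whether repeated arrays of a line drew on separate cultures. P-values of the comparisons of a single line therefore reflect variation among arrays that could be purely technical. Those of the lineage comparisons reflect variation among the means of different lines. The short annotation of the samples calls them primary tissue, whereas their titles, which were followed, call them cell lines.

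CCN proteins are secreted into the extracellular matrix, where they do not form part of its scaffold but alter how cells respond to it. They are built from modules that resemble insulin-like growth factor binding proteins, von Willebrand factor, thrombospondin and cysteine-knot growth factors, and Ccn5 lacks the cysteine-knot module. Integrins, the endocytic receptor Lrp1 and heparan sulfate proteoglycans serve as their receptors. Ccn2 is a widely used readout of TGF-beta signalling and of the co-activators Yap1 and Wwtr1 (TAZ) acting through TEAD factors, and is linked to fibrosis. Ccn3 can oppose Ccn2 in matrix production and can bind Notch1, and Ccn5 is known as a gene that responds to Wnt signals and estrogen in mammary cells.

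Each value is a log2 ratio of line over pool, so that 0 is the level of the pool and 1 is double that level. Neither the base of the logarithm nor the direction of the ratio is stated in the sources used here. Both were judged from the values, and every fold rests on base 2. Dyes were never exchanged, and a ratio shows how a gene varied over the lines, not which of the genes was more abundant. Array medians lay between -0.51 for the embryo fibroblast line and 0.13 for the skin line, with -0.40 for the kidney line. Across probes, Pearson's r of repeated arrays was 0.67 for mammary tumor, 0.68 for myeloma and 0.38 for fibroblast, the last within the range of -0.14 to 0.49 for arrays of different lines. The fibroblast arrays thus agreed less well than the other pairs, and the levels of Ccn2, Ccn3 and Ccn5 below are also given per array. Lines with 1 array have no replicate check of their own.

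Markers of the labelled cell type were present in the blood-cell and myoblast lines and less clear in the organ lines. In the myoblast line 10 of 10 tested muscle markers were above the pool, with a mean log2 ratio of 3.12. Pan-leukocyte markers averaged 1.66 in the macrophage, -0.62 in the myeloma and 0.48 in the T-cell lymphoma line, against -3.70 to -2.21 in the other 8 lines. None of the tested markers reached double the pool's level in the liver line (7 liver markers), the kidney line (8 kidney markers), the mammary tumor line (6 mammary gland markers) or the skin line (9 keratinocyte and skin markers). Fibroblast and matrix markers averaged 0.20 in the fibroblast and -0.61 in the embryo fibroblast line, and were highest in the testis line at 0.32.

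Ccn2 was high in the embryo fibroblast and in several organ lines and very low in all 3 blood-cell lines and in the skin line. Its log2 ratio was -4.79 in the macrophage line, -4.18 and -3.14 on the myeloma arrays and -4.72 in the T-cell lymphoma line. Among the mesenchymal lines it was 1.42 in the embryo fibroblast line, -1.08 and -1.83 on the fibroblast arrays and -1.24 in the myoblast line. Among the organ lines it was 0.78 in liver, 0.46 in testis, 0.06 in kidney, -0.68 and -0.61 on the mammary tumor arrays and -4.42 in skin. The blood-cell lines all lay below the other lines except for skin, which fell among them. In bulk RNA, fewer cells that make a transcript and less of it per cell cannot be told apart.

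Averaged over lines, Ccn2 was -4.39 in the 3 blood-cell lines and -0.63 in the other 8, a difference of -3.76 ± 0.92 (SE), or 13.6-fold. Line by line, the difference from the mean of the other 10 lines was -3.45 ± 0.49 for macrophage, -3.37 ± 0.49 for T-cell lymphoma, -3.04 ± 0.49 for skin and -2.21 ± 0.36 for myeloma. Above that mean stood embryo fibroblast by 3.38 ± 0.49 (10.4-fold), liver by 2.68 ± 0.49, testis by 2.32 ± 0.49, kidney by 1.88 ± 0.49 and mammary tumor by 1.12 ± 0.36, while myoblast and fibroblast were within their error of it. Relative to the kidney line, the skin line differed by -4.47 ± 0.66, a 22.2-fold lower level. A low Ccn2 was therefore shared by all lines of blood origin but was not limited to them.

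Ordered by line mean, Ccn2 ran from the embryo fibroblast line (1.42) through liver (0.78), testis (0.46), kidney (0.06), mammary tumor (-0.64), myoblast (-1.24) and fibroblast (-1.45) to myeloma (-3.66), skin (-4.42), T-cell lymphoma (-4.72) and macrophage (-4.79). The largest gap between arrays of 1 line was 1.04, in myeloma. Between neighbours in this order only the step of 2.21 from fibroblast to myeloma was larger. After centring of the arrays the step from kidney to mammary tumor (1.14) also exceeded 1.04, as did that from embryo fibroblast to liver (1.07). The centred myeloma arrays, at -4.18 and -3.08, were themselves further apart than 1.07. Lines further apart in the order did differ by more, such as embryo fibroblast and fibroblast, by 2.87 ± 0.57. Spot intensities were not used here, and how far the lowest spots stood above background is not known. The order among the lowest values should not be read.

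The arrays fell into 5 runs of close image numbers, and the separation of the blood-cell lines in Ccn2 was present within both runs that held them. In run 3 the T-cell lymphoma line was at -4.72, against a mean of 0.13 in the embryo fibroblast, fibroblast and kidney lines. In run 4 the macrophage and myeloma lines averaged -4.23, against -0.20 in the fibroblast, testis and liver lines. The differences were -4.85 and -4.03, against -3.76 over all runs and -4.30 over all runs without the skin line, which was in neither run. Since Ccn2 was chosen with these values known, this is no test of an effect of the runs. The skin array was the only one of its run, so line and run cannot be told apart for its low Ccn2.

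Matrix markers and Ccn2 stood apart in several lines. Fibroblast and matrix markers (11 tested) averaged -2.91 in macrophage, -2.74 in myeloma and -2.61 in T-cell lymphoma, close to -2.49 in the kidney line, where Ccn2 was at the level of the pool. They averaged -1.32 in the skin line, where Ccn2 was -4.42. Pan-leukocyte markers in the skin line averaged -2.49, with 0 of 9 above the pool. The part of cell makeup in these values was not tested.

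**Figure D1:**
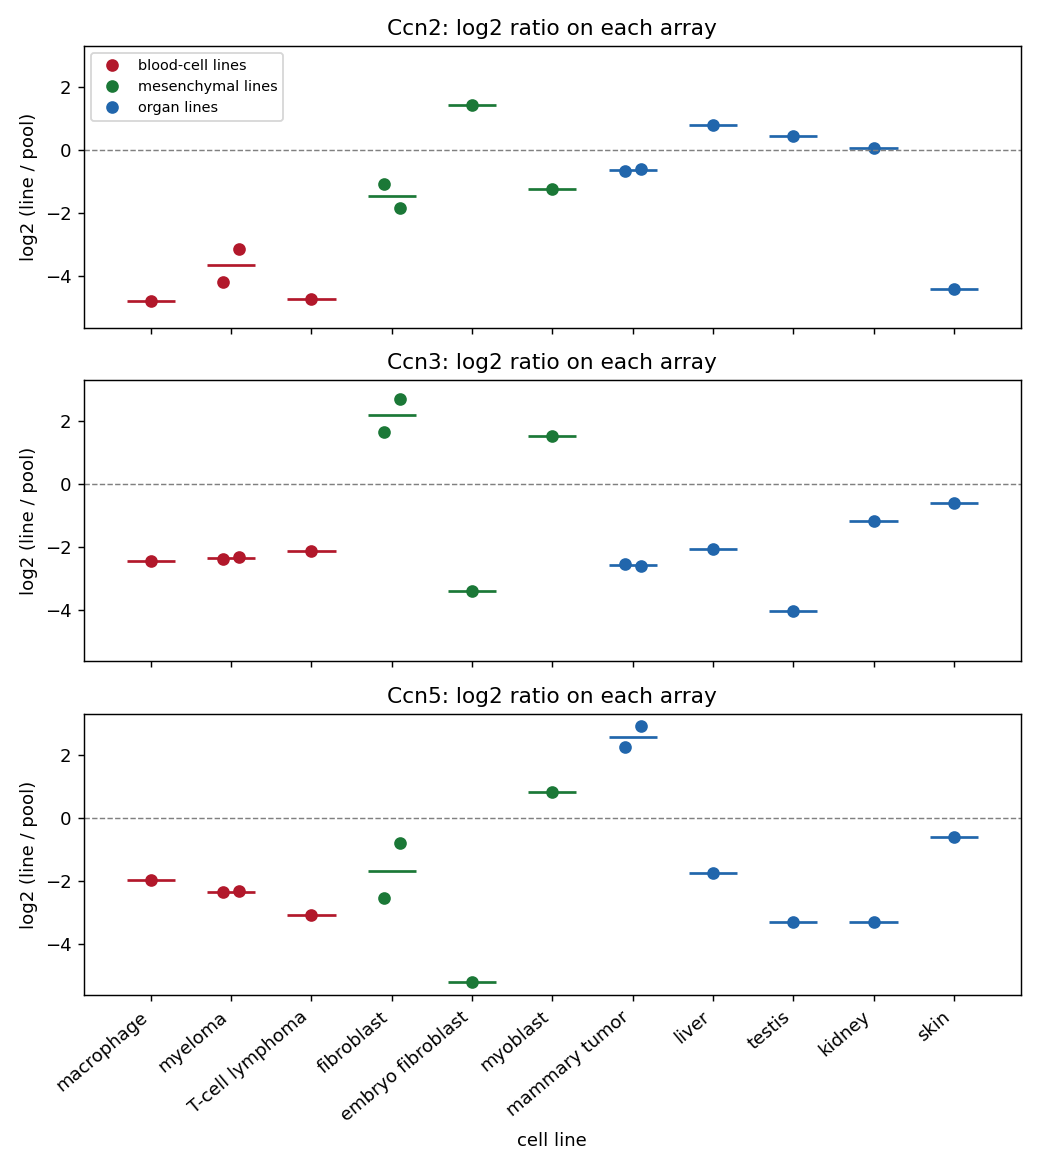
Log2 ratio of line over pool (y axis) of Ccn2, Ccn3 and Ccn5, 1 panel each, in the 11 lines (x axis), where each point is 1 array, a short line is the mean of a cell line, and colours mark blood-cell, mesenchymal and organ lines. Ccn2 is lowest in the 3 blood-cell lines and in skin, Ccn3 is above the pool in the fibroblast and myoblast lines, and Ccn5 in the mammary tumor and myoblast lines.

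Ccn3 was above the pool in the fibroblast and myoblast lines and in no other line. Its log2 ratio was 1.65 and 2.70 on the fibroblast arrays, 1.53 in the myoblast line and -3.40 in the embryo fibroblast line. It was -0.62 in skin, -1.19 in kidney, -2.08 in liver, -2.54 and -2.62 on the mammary tumor arrays and -4.03 in testis. The blood-cell lines held a narrow band, with -2.45 in macrophage, -2.37 and -2.32 on the myeloma arrays and -2.13 in T-cell lymphoma. The fibroblast and myoblast arrays did not overlap any other array, and the blood-cell lines lay within the range of the other 8.

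In Ccn3 the fibroblast line stood 4.10 ± 0.33 (17.2-fold) above the mean of the other 10 lines, at 2.17 against -1.93, and the myoblast line 3.39 ± 0.44 (10.5-fold), at 1.53 against -1.87. The testis line was below that mean, with a difference of -2.72 ± 0.44, and so was the embryo fibroblast line, with -2.03 ± 0.44. With each array centred on its median the embryo fibroblast difference was -1.59, since that array has the lowest median. The 3 blood-cell lines averaged -2.31 and the other 8 averaged -1.27, a difference of -1.03 ± 1.10 that was smaller than its error. The 3 mesenchymal lines averaged 0.10 and the 5 organ lines -2.10, a difference of 2.20 ± 1.07, with the embryo fibroblast line below every organ line but testis. It was 1.16 without the fibroblast line and 3.95 without the embryo fibroblast line.

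In the order of Ccn3 levels, only the step of 2.15 from myoblast to skin exceeded the largest gap between arrays of a line, which was 1.06 in the fibroblast line. The fibroblast line (2.17) and the myoblast line (1.53) were not resolved from each other, nor were neighbours among the other 9 lines before centring. After centring of the arrays the step from kidney to liver (1.23) also exceeded that gap. The fibroblast arrays lay in separate runs of image numbers and were each the highest of their run. In run 3 the other arrays were at -1.19, -2.13 and -3.40, and in run 4 they lay between -4.03 and -2.08. The myoblast array shared its run with mammary tumor array 2, at -2.62. Muscle markers averaged 3.12 in the myoblast line and -1.61 in the fibroblast line, where 0 of 10 were above the pool, so the lines that shared a high Ccn3 differed in these markers.

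Ccn5 was highest in the mammary tumor line, followed by the myoblast line, and was below the pool in the other 9 lines. Its log2 ratio was 2.24 and 2.90 on the mammary tumor arrays, -0.62 in skin, -1.76 in liver, -3.31 in kidney and -3.32 in testis. Among the mesenchymal lines it was 0.82 in myoblast, -2.56 and -0.81 on the fibroblast arrays and -5.23 in embryo fibroblast, the lowest value of any CCN gene on any array. In the blood-cell lines it was -1.98 in macrophage, -2.36 and -2.34 on the myeloma arrays and -3.08 in T-cell lymphoma. Both mammary tumor arrays were above every other array, and the blood-cell lines lay inside the range of the other 8.

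The mammary tumor line averaged 2.57 in Ccn5, against -2.25 over the other 10 lines, a difference of 4.82 ± 0.46 (28.3-fold). The myoblast line differed from the others by 2.90 ± 0.62 (7.47-fold), the skin line by 1.32 ± 0.62 and the embryo fibroblast line by -3.76 ± 0.62. The 3 blood-cell lines averaged -2.47 and the other 8 lines -1.57, a difference of -0.90 ± 1.23. The 3 mesenchymal lines averaged -2.03 and the 5 organ lines -1.29, a difference of -0.74 ± 1.36. Neither lineage difference exceeded its error, and the second was 0.86 without the embryo fibroblast line and -2.17 without the myoblast line.

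The fibroblast arrays were 1.74 apart in Ccn5, against 0.66 and 0.02 for the mammary tumor and myeloma arrays. Set against that gap, the steps from mammary tumor to myoblast (1.75) and from testis to embryo fibroblast (1.91) were barely larger. After centring of the arrays they were 1.63 and 1.55 and no longer exceeded it. The mammary tumor and myoblast arrays made up runs 1 and 2, which held no other line, so for Ccn5 these lines and their runs cannot be told apart. Within run 2, mammary tumor array 2 was at 2.90 and the myoblast array at 0.82. Epithelial markers averaged -1.01 in the mammary tumor line and mammary gland markers -0.09, so the line with the highest Ccn5 was not high in either list.

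Lines of related name carried different CCN genes. The embryo fibroblast line exceeded the fibroblast line in Ccn2 by 2.87 ± 0.57 (7.32-fold), whereas its Ccn3 differed by -5.58 ± 0.52 (47.7-fold lower) and its Ccn5 by -3.54 ± 0.73 (11.6-fold lower). Relative to the embryo fibroblast line, the myoblast line differed by -2.66 ± 0.66 in Ccn2, 4.93 ± 0.60 in Ccn3 and 6.05 ± 0.84 in Ccn5, the last a 66.4-fold ratio between 1 array each. The embryo fibroblast array had the lowest median (-0.51). Centring narrows its gaps in Ccn3 and Ccn5 and widens those in Ccn2, with Ccn5 then at 0.90 in myoblast and -4.72 in embryo fibroblast. How far its Ccn5 spot stood above background is not known, so these folds are rough. Myoblast and fibroblast lines were close in Ccn2 (0.21 ± 0.57) and in Ccn3 (-0.65 ± 0.52) but apart in Ccn5 (2.51 ± 0.73). Skin and fibroblast lines differed by -2.96 ± 0.57 in Ccn2 and -2.80 ± 0.52 in Ccn3. The mammary tumor line was below the myoblast line in Ccn3, by -4.10 ± 0.52, and above it in Ccn5, by 1.75 ± 0.73.

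Expressed as a share of the unlogged ratios summed over the 11 lines, each gene drew on different lines. The series title concerns what single lines contribute to the reference, and such a share describes that if all lines had entered it in equal parts, which was not tested. For Ccn2 the share was 31.7% for embryo fibroblast, 20.4% for liver, 16.3% for testis and 12.3% for kidney. For Ccn3 it was 46.7% for fibroblast and 29.9% for myoblast. For Ccn5 it was 60.8% for mammary tumor and 18.1% for myoblast, while embryo fibroblast gave 0.273%. Ccn2 thus drew on 4 lines with 12.3% or more each, and Ccn3 and Ccn5 on 2 with 18.1% or more. These shares rest on the direction line over pool, which was judged from the values. Read so, muscle markers averaged 3.12 in the myoblast line and B and plasma cell markers 2.03 in the myeloma line. Macrophage markers averaged 1.39 and T cell markers 1.02 in their own lines. With the sign turned, all of these means would lie below the pool. Markers of the organ lines were less clear. With the sign turned, the largest would be macrophage for Ccn2 (28.5%), testis for Ccn3 (29%) and embryo fibroblast for Ccn5 (44.8%).

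**Figure D2:**
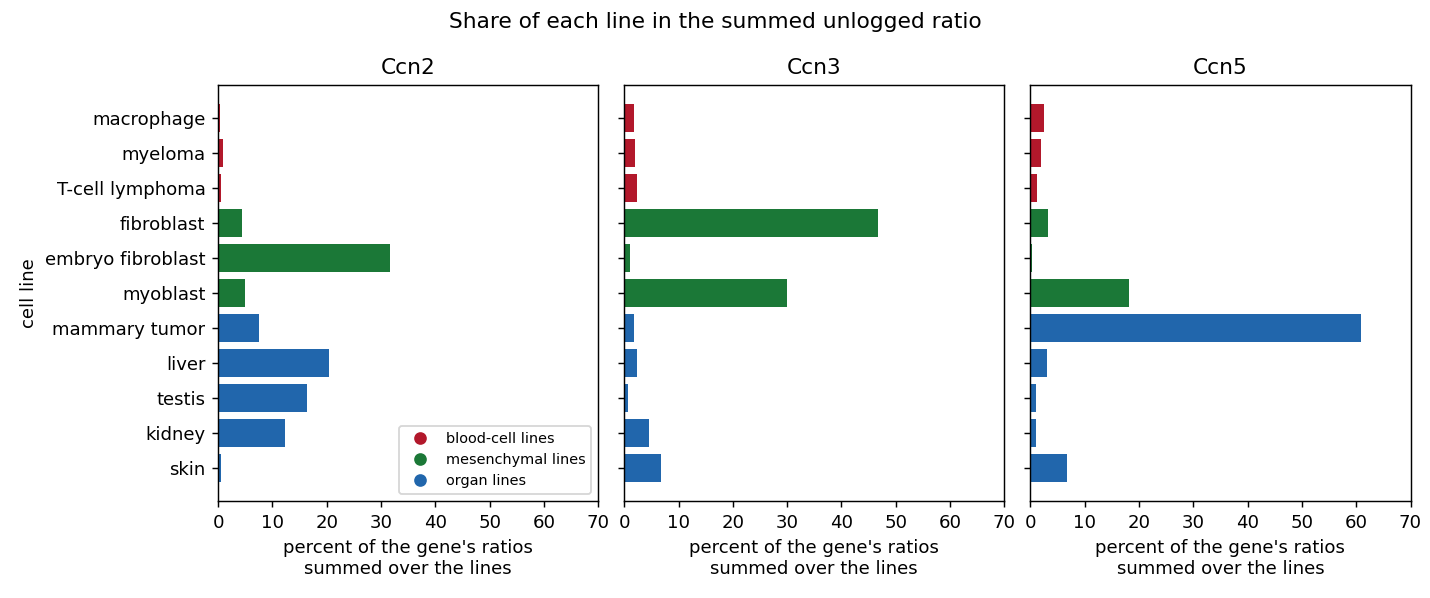
Share of the unlogged ratio summed over the 11 lines (percent) that each line contributed, for Ccn2, Ccn3 and Ccn5, with the ratio read as line over pool. Read so, embryo fibroblast leads for Ccn2 with 31.7%, fibroblast for Ccn3 with 46.7% and mammary tumor for Ccn5 with 60.8%; with the sign turned macrophage (28.5%), testis (29%) and embryo fibroblast (44.8%) would lead.

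The patterns of the 3 genes over the lines had little in common. Over the 11 line means, which share the pool and the dye orientation, Pearson's r was -0.15 between Ccn2 and Ccn3, -0.17 between Ccn2 and Ccn5 and 0.39 between Ccn3 and Ccn5. These correlations describe 11 points and carry no test. The myoblast line was the only line above the pool in both Ccn3 and Ccn5, and no line was above it in all 3.

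Ccn2, Ccn3 and Ccn5 varied far more over the lines than the other CCN genes measured. The SD over line means was 2.34 for Ccn2, 1.92 for Ccn3 and 2.14 for Ccn5, against a median of 0.62 and a 95th percentile of 1.51 over 7423 features. A lower SD was found for 99.6%, 98.3% and 99.1% of the features, in the same gene order. Since the genes were chosen for such values, these ranks only describe them. Ccn1 (Cyr61), a further target of Yap1 and TEAD factors in other settings, had an SD of 0.60, and Ccn4 (Wisp1), a gene that responds to Wnt1, had an SD of 0.38.

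Ccn1 ranged from -1.71 in T-cell lymphoma and -1.18 in testis to 0.36 in macrophage and 0.98 on fibroblast array 2, with -0.59 on fibroblast array 1. Ccn4 ranged from -0.71 in myoblast to 0.62 in kidney and 0.77 on fibroblast array 2, with 0.00 on fibroblast array 1. No step between neighbours in the order of either gene exceeded the largest gap between arrays of 1 line, which was 1.58 for Ccn1 and 0.76 for Ccn4. The blood-cell lines differed from the other 8 by -0.28 ± 0.41 in Ccn1 and by 0.11 ± 0.31 in Ccn4, within the error of both. In both genes the blood-cell lines overlapped the other lines.

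**Figure D3:**
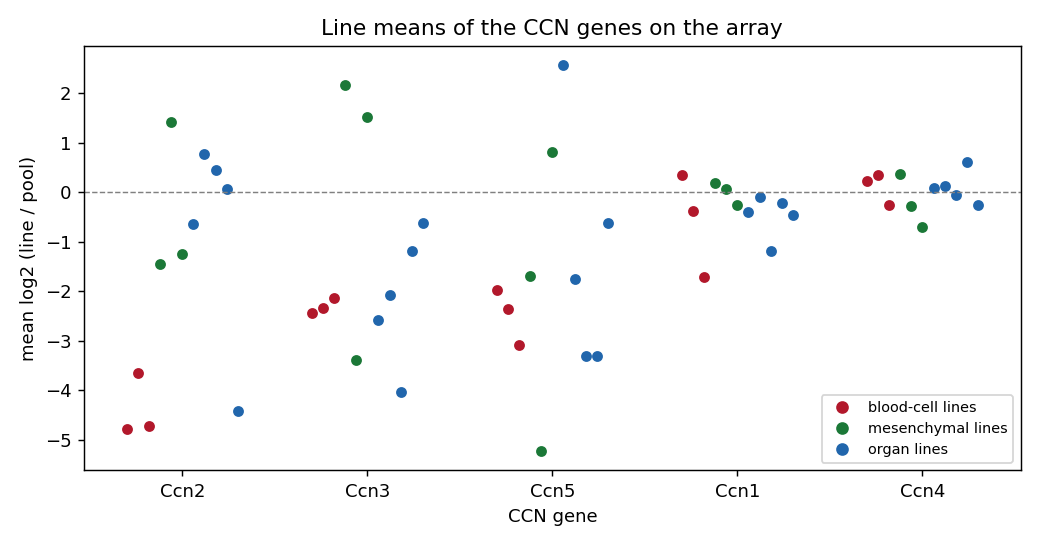
Log2 ratio of line over pool for the 5 CCN genes on the array in the 11 lines, 1 point per line mean, coloured by lineage. Ccn2, Ccn3 and Ccn5 span 6.21, 6.20 and 7.80 units over the lines, and Ccn1 and Ccn4 span 2.07 and 1.32.

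For Ccn2 the most similar patterns over the 11 lines, by Pearson's r of line means, belonged to Efnb2 (0.96), Epb41l4a (0.95), Ppm1l (0.92), Mapre3 (0.90) and Hspg2 (0.89). Efnb2 is the ephrin-B2 ligand and Hspg2 the basement membrane proteoglycan perlecan, and Spearman's rho for the 5 genes was between 0.85 and 0.93. Hspg2 had 2 probes, and its r is that of 1 of them, which was at -4.29 and -1.45 on the myeloma arrays. Efnb2 was highest in the embryo fibroblast line (0.91) and lowest in the macrophage line (-3.69). Of these 5 genes, 4 were also among the 5 most similar by Spearman's rho, 4 after centring and 4 after quantile normalization.

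For Ccn3 the most similar genes were Fam172a (0.89), Plekhb2 (0.89), Amy1 (0.85), Eif4e (0.84) and Xrcc5 (0.84), and for Ccn5 they were Hsd17b11 (0.91), Ptgs2 (0.90), Wnt10b (0.90), Pdcd6 (0.90) and Flna (0.89). Their own SDs over the lines were small, at 0.31 to 0.59 for the genes like Ccn3 and 0.43 to 1.03 for those like Ccn5. The choice of genes also depended on the measure. By Spearman's rho 1 of the 5 was kept for Ccn3 and 1 for Ccn5, and after centring 2 and 2. The likeness of Ccn2 to its neighbours was the most stable of the 3.

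Among genes that act with Yap1 and TEAD factors, likeness to Ccn2 was uneven. Over the 11 lines r with Ccn2 was 0.83 for Ankrd1, a further target of Yap1, 0.67 for Yap1, 0.59 for Wwtr1, -0.08 for the receptor tyrosine kinase gene Axl and -0.77 for Tead2. Ankrd1 was high in liver (2.48), embryo fibroblast (2.08) and kidney (1.76) and low in T-cell lymphoma (-3.37) and skin (-2.29), as Ccn2 was. The ratios of the genes were apart in macrophage (-1.07 for Ankrd1, -4.79 for Ccn2), myeloma (-1.34 and -3.66) and mammary tumor (1.42 and -0.64), and Ankrd1 was below the pool in testis (-0.23), where Ccn2 was above it (0.46). Thbs1 (thrombospondin 1), a matricellular protein that activates latent TGF-beta, had r of 0.80 with Ccn2, and the integrin gene Itga5 had 0.69. These values describe 11 lines and carry no test.

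**Figure D4:**
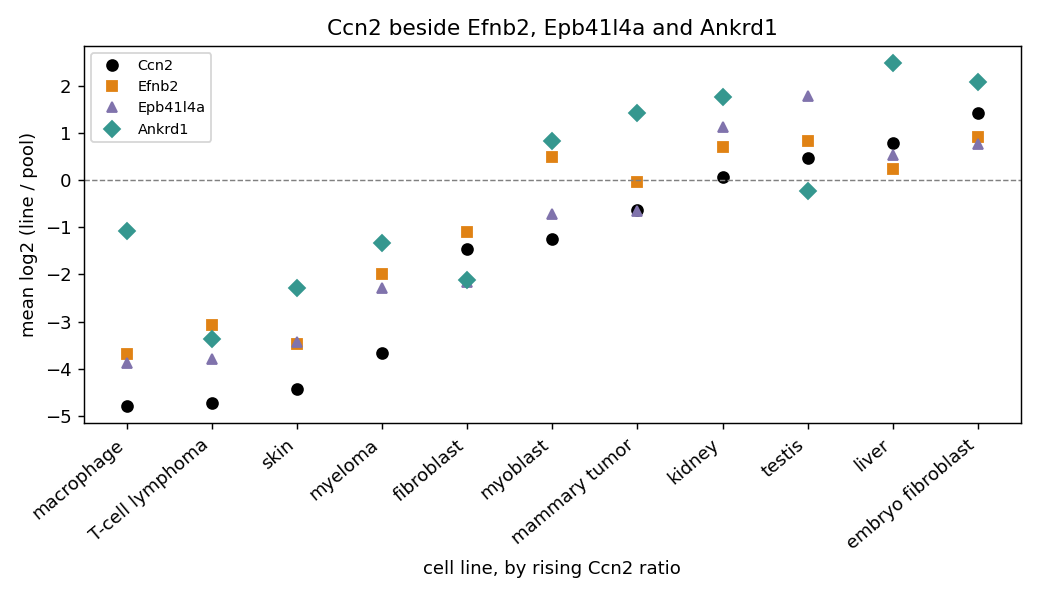
Mean log2 ratio of line over pool (y axis) of Ccn2, of Efnb2 and Epb41l4a, the genes with the most similar patterns, and of Ankrd1, in the 11 lines ordered by Ccn2 (x axis). Efnb2 (r = 0.96) and Epb41l4a (r = 0.95) are, like Ccn2, low in the blood-cell and skin lines, and Ankrd1 is further from Ccn2 in several lines, such as macrophage (-1.07 against -4.79).

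Genes of the pathways around CCN proteins were tested in limma over 7423 features with Benjamini-Hochberg adjustment, the lists having been written with earlier results of these arrays known. Between the 3 blood-cell lines and the other 8, where Ccn2 was low, 3.22% of all features were called, 0.997% higher and 2.22% lower. Of 18 other matricellular genes 3 were lower and 0 higher, of 28 genes of the YAP and TEAD pathway 6 and 0, of 29 of the TGF-beta pathway 4 and 0, and of 15 receptors 3 and 1. Of 26 Wnt and estrogen genes 4 were lower and 0 higher, and none passed among 14 genes of the insulin-like growth factor axis, 18 Notch genes and the 2 other CCN genes. The median difference was -1.46 for matricellular, -0.90 for TGF-beta and receptor, and -0.63 for YAP and TEAD genes, against 0.11 over all features.

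The matricellular genes that fell were Thbs1, at -5.57 in blood-cell lines against -0.19 in the others (difference -5.38 ± 0.97, limma adjusted p = 0.0102), Sparc (-4.32 ± 0.53, adjusted p = 0.00085) and Fbln2 (-4.13 ± 0.49, adjusted p = 0.000747). Sparc encodes a collagen-binding protein and Fbln2 fibulin 2. Wwtr1, a co-activator of TEAD factors, was at -2.47 against 0.26 (-2.74 ± 0.40, adjusted p = 0.00289). In the same pathway F3, the tissue factor gene (-3.06 ± 0.56, adjusted p = 0.0113), and the angiomotin-like Amotl2 (-2.84 ± 0.55, adjusted p = 0.0145) were lower. Yap1 (-1.62) was not called. Outside the blood-cell lines Wwtr1 and Ccn2 stood apart in skin (0.56 and -4.42) and in embryo fibroblast (-0.62 and 1.42), and over the 11 lines their r was 0.59. A link of Wwtr1 to the Ccn2 levels was not tested.

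Receptors with lower ratios in blood-cell lines were Lrp1 (-2.93 ± 0.62, adjusted p = 0.0226), Itga5 (-2.53 ± 0.50, adjusted p = 0.0173) and Hspg2 (-3.08 ± 0.74, adjusted p = 0.0385, and -1.76 ± 0.36, adjusted p = 0.0189, on its other probe), and Itgb2, the leukocyte integrin chain, was higher (2.85 ± 0.61, adjusted p = 0.0246). Itgb2 was also one of the pan-leukocyte markers, and Col1a1 of the TGF-beta list (-3.70 ± 0.91, adjusted p = 0.0438) one of the matrix markers. All 19 genes named by rule for this contrast had the same sign within both runs that held blood-cell lines, run 3 with 1 such line. They were picked for large differences on these same arrays, so the shared sign was largely set by the choice. It is no test of an effect of the runs. Of the named genes Thbs1, Sparc, Fbln2, Wwtr1, F3 and the Wnt receptor gene Fzd2 passed in every setting tried, whereas the TGF-beta count was 0 with quantile normalization and without the fibroblast line. Receptors with lower ratios numbered 0 with quantile normalization and without the T-cell lymphoma line.

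**Figure D5:**
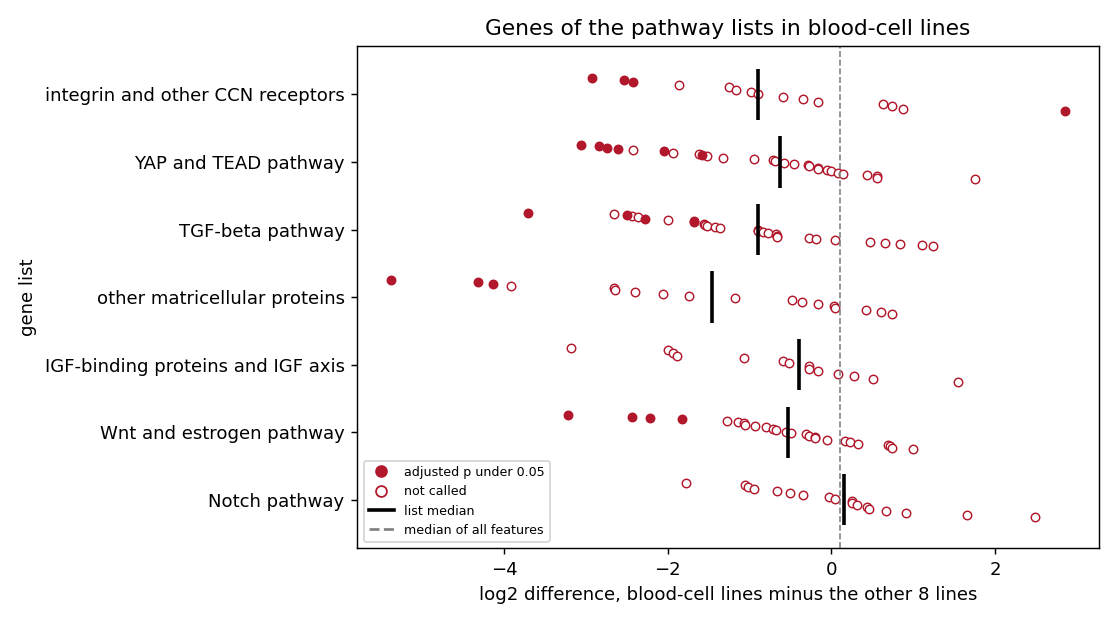
Difference in log2 ratio between the 3 blood-cell lines and the other 8 (x axis) for each tested gene of 7 pathway lists, 1 row a list, with probes of a gene averaged, genes past adjusted p 0.05 filled, a bar at each list's median and a dashed line at the median of all features. The medians of the matricellular (-1.46), TGF-beta (-0.90) and YAP and TEAD (-0.63) genes lie below the median of all features (0.11).

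The fibroblast line, the line with the highest Ccn3, had calls for 1.23% of features (0.835% higher, 0.391% lower). Of the 18 matricellular genes 4 were higher, among them Thbs2 (5.78 ± 0.92, limma adjusted p = 0.0479), Thbs1 (3.14 ± 0.40, adjusted p = 0.0236) and the galectin gene Lgals3 (2.82 ± 0.32, adjusted p = 0.0204). Thbs2 was at 0.94 on fibroblast array 1 and 3.40 on array 2, with mammary tumor array 2 between them at 1.20. Of 15 receptors 3 were higher, including Lrp1 (2.48 ± 0.35, adjusted p = 0.0324). Ankrd1 was lower, at -2.11 against 0.03 (-2.14 ± 0.34, adjusted p = 0.0479), while Ccn2 in this line, at -1.45 against -1.68, differed by 0.22 ± 0.36. Of 18 Notch genes, the pathway to which Ccn3 is linked, 1 was higher: Rbpj, the DNA-binding partner of Notch (2.16 ± 0.29, adjusted p = 0.0291). These counts depended on single arrays. Without fibroblast array 2, 0 features passed (1390 at an unadjusted p under 0.05), and without array 1 the number was 16, with 0 genes of any list in both cases. Without a mammary tumor array, or without myeloma array 2, only matricellular genes passed among the lists (3, 3 and 1 higher).

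The myoblast line, second in both Ccn3 and Ccn5, had calls for 0.795% of features (0.552% higher, 0.242% lower). Tagln, a smooth muscle actin-binding protein induced by TGF-beta, was higher by 6.14 ± 0.38 (limma adjusted p = 0.00497), and so were Tgfb2 (3.32 ± 0.35, adjusted p = 0.0259) and the Wnt effector Lef1 (2.81 ± 0.34, adjusted p = 0.0308). Jag1, a Notch ligand, was lower (-3.83 ± 0.50, adjusted p = 0.047). Without a myeloma array 3 features passed in all, and without a mammary tumor array 4.

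The embryo fibroblast line, highest in Ccn2 and lowest in Ccn5, had calls for 2.21% of features (0.418% higher, 1.79% lower), with a median difference of -0.42 over all features. Of the pathways around Ccn2, 0 of 28 YAP and TEAD genes and 0 of 29 TGF-beta genes were higher. Lower were 3 TGF-beta genes, among them Tgfbr2, a receptor of TGF-beta (-4.34 ± 0.67, limma adjusted p = 0.0327), and 1 YAP and TEAD gene. The latter was Tgfb2 (-2.28 ± 0.35, adjusted p = 0.0332), which is in both lists and counted in each. After centring 0 TGF-beta genes were lower and 1 YAP and TEAD gene was higher, and after quantile normalization 0 genes of either list passed. No TGF-beta gene passed either when a mammary tumor or a myeloma array was left out. The share of higher calls over all features, 18.9%, was 44% after centring and 40.7% after quantile normalization. Tnc, the matricellular tenascin C, was higher by 3.25 ± 0.45 (adjusted p = 0.0235) on one probe and by 2.38 ± 0.61 (adjusted p = 0.0967) on the other.

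The comparison for the mammary tumor line, highest in Ccn5, was added after the levels were seen. It had calls for 0.862% of features (0.714% higher, 0.148% lower). Of 29 TGF-beta genes 4 were higher (2 after centring, 8 after quantile normalization), among them Bmpr2, a receptor of bone morphogenetic proteins (2.62 ± 0.40, limma adjusted p = 0.0466), and 1 of 28 YAP and TEAD genes, 1 of 15 receptors and 1 of 18 Notch genes were higher. Of 26 Wnt and estrogen genes, the pathways to which Ccn5 is linked, 1 was higher: Sfrp2, a secreted Wnt modulator (3.66 ± 0.26, limma adjusted p = 0.0113). Of 14 genes of the insulin-like growth factor axis 3 were higher, with Igfbp4 (4.48 ± 0.44, adjusted p = 0.0151) ahead, and of the matricellular genes 2 were, Thbs1 (4.45 ± 0.40, adjusted p = 0.014) and Postn (3.40 ± 0.53, adjusted p = 0.0482). Without either mammary tumor array 0 features passed (493 and 412 at an unadjusted p under 0.05). Calls were 82.8% higher as fitted, 70% after centring and 47.6% after quantile normalization.

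With the replicate number as a block, counts of calls moved by more than 1.5 times in these 4 line comparisons. Over all 7423 features they came to 326 for fibroblast (194 higher, 132 lower) and 859 for embryo fibroblast (170 higher, 689 lower). For myoblast they were 380 (239 higher, 141 lower) and for mammary tumor 388 (321 higher, 67 lower). Among matricellular genes they were 5 higher and 1 lower for fibroblast, 5 and 4 for embryo fibroblast, 5 and 0 for myoblast, and 5 and 1 for mammary tumor. Among YAP and TEAD genes they were 0 higher and 3 lower for fibroblast, 3 and 1 for embryo fibroblast, 1 and 0 for myoblast, and 5 and 0 for mammary tumor. Among TGF-beta genes the block gave 5 higher and 2 lower for fibroblast, 2 and 8 for embryo fibroblast, 5 and 2 for myoblast, and 11 and 1 for mammary tumor. In each line the TGF-beta counts leaned the same way as the calls over all features. The remaining lists of the same comparisons gave 0 to 6 genes in either direction. Between the 3 mesenchymal and the 5 organ lines 0 features passed in limma, with 465 (6.26%) at an unadjusted p under 0.05.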

How the data were processed

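The deposited values are log2 ratios, 1 per spot and array, in the authors' value table. The sources used here do not give background correction, normalization or spot filters. Base 2 and the direction line over pool were judged from the values: the median over features of the mean unlogged ratio over lines was 1.00 this way and 1.2 with the sign turned. A mean of 1.00 is that of a pool of equal parts, which was not tested. Whether the arrays had been centred is unknown. Of 107520 values 423 were empty, and 80 Gapdh spots were averaged, which left 7601 features, of which 7423 had a value in every line. Gene names came from the platform annotation (6835 probes with 1 symbol, 4 with several, 841 not listed) and were updated by gene identifier through a RefSeq table of GRCm38.p6 for 6809 probes. On mammary tumor array 1 the reference's label carries 3 further letters, whose meaning is unknown here.

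limma 3.58.1 in R 4.3.3 was fitted on all 14 arrays with 1 coefficient per line (3 residual degrees of freedom, 3.75 added by moderation), each line against the equal-weight mean of the other 10. Lone arrays were assumed to vary like the pairs. For lineages the replicate was the line, by its mean. Tests were two-sided, with calls at an adjusted p (Benjamini-Hochberg) under 0.05. The comparison of mammary tumor was added after the levels were seen. Errors are standard errors of the fit, and the number of arrays limits the precision. The scripts were tested on simulated data. Figures used matplotlib 3.10.9 in Python 3.11.15.

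Members and lists were chosen with earlier results of these data known. Named genes were the CCN genes, the 5 most similar by Pearson's r for each member, a set of genes picked by role, and up to 4 genes per list, direction and contrast with the largest difference among those called, of which the text gives a part. The difference of array 1 minus array 2 correlated across features between lines (r of 0.54 for fibroblast and mammary tumor, 0.33 for fibroblast and myeloma, 0.38 for mammary tumor and myeloma), so the array numbers of the titles were taken to pair the arrays, and a fit with the number as a block is given where it moves a count. Image runs were parted where image numbers jumped by more than 50. Centring, quantile normalization, features on all arrays, probes averaged by gene, the image run as a block and left-out arrays or lines were tried as alternatives.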

Additional observations from a re-analysis of the deposited data

Results flagged for a closer look

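Ccn2 in the skin line, at a log2 ratio of -4.42, stood far from the other 4 organ lines, which lay between -0.64 and 0.78, with a gap of 0.726 of the group's range. Ccn1 in the testis line, at -1.18, stood below the means of the other lines that are not of blood origin. These means lay between -0.45 and 0.19, with a gap of 0.528 of the range. Single arrays ranged more widely, with -0.59 and 0.98 on the fibroblast arrays. After centring, the step from skin to testis was 0.44, against 0.72 before. Both gaps were large for groups of their size by Dixon's ratio, which marks about 1 in 20 groups by chance, and 10 groups were examined. Since Ccn2 was chosen with these values known, its gap describes the levels and is no test of them. Each of these lines had 1 array.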

How the results depend on the processing

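Of the leading CCN differences, that of Ccn2 between blood-cell and other lines was -3.04 with quantile normalization, against -3.76 as fitted, and -4.30 to -3.47 with single lines left out, lowest without skin. That of Ccn3 for fibroblast was 3.57 without array 2 and 4.63 without array 1. With arrays left out, Ccn2 for embryo fibroblast ranged from 3.33 to 3.43, Ccn3 for myoblast from 3.34 to 3.45, Ccn5 for myoblast from 2.81 to 2.99 and Ccn5 for mammary tumor from 4.49 to 5.15, and no other alternative moved them beyond their spread. Ccn5 for embryo fibroblast, at -3.76 as fitted, ranged from -3.85 to -3.67 with arrays left out, and 1 of 12 alternatives moved it beyond its spread. Some differences smaller than their error changed sign. Ccn5 for fibroblast was -0.73 without array 2 and 1.01 without array 1, and Ccn2 between mesenchymal and organ lines was -0.59 without embryo fibroblast and 0.84 without fibroblast. Ccn5 between blood-cell and other lines, also smaller than its error, stayed negative with lines left out (-1.43 to -0.31). Ccn3 between mesenchymal and organ lines, larger than its error, ranged from 1.16 to 3.95.

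Counts of calls were far less stable. The fibroblast count of 91 was 227 with the image run as a block, 326 with the replicate block and 0 to 62 with single arrays left out. The embryo fibroblast count of 164 was 100 after centring, 59 after quantile normalization, 859 with the replicate block and 30 to 287 with arrays left out. The myoblast count of 59 was 5 with the image run, 380 with the replicate block and 3 to 132 with arrays left out. The mammary tumor count of 64 was 328 after quantile normalization, 13 with the image run, 388 with the replicate block and 0 to 114 with arrays left out. The blood-cell count of 239 was 111 after quantile normalization, 499 with arrays in place of line means and 116 to 216 with lines left out (136 without fibroblast, 146 without myeloma). Between mesenchymal and organ lines it was 0, or 1 without myoblast. The cause was not tested. For the 55 gene differences of the lists, 495 of 734 alternative values were still called, 239 were not and 0 were reversed, and 8 genes were called throughout. The replicate block changed no other call than those given with it. Spot intensities were not used here, so signal over background limits the lowest ratios by an unknown amount.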
